A study of Homo sapiens with 8 samples.

Results

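The genes described here are the long intergenic RNA genes that carry a LINC symbol and that were measurable in at least 1 of 8 two-colour microarrays of transfected cancer cells. The array design listed 836 genes named LINC followed by 5 digits. Of these, 287 were well above background in both channels of at least 1 array. The same rule kept 21327 of all 43317 genes, LINC genes included. Another 120 LINC genes were above background in 1 channel only and 429 in none. The members were thus chosen by their measured signals, and that they were detected is not a finding. The 46 members that passed on exactly 1 array did so at signals from 35.3 to 151 (median 57.0), and the 120 genes seen in 1 channel only had signals from 10.66 to 64.6 (median 31.4). In contrast, 109 members were measured in both channels of all 8 arrays.

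Each array held total RNA of mock cells, which were not transfected, in the Cy3 channel and RNA of transfected cells of the same line in the Cy5 channel. FaDu, a hypopharyngeal squamous cell carcinoma line, received miR-99a-5p or miR-99a-3p. PC3, a prostate cancer line, received miR-99a-3p, miR-100-3p or either strand of miR-150 (miR-150-5p or miR-150-3p). PANC-1, a pancreatic cancer line, received 1 of 2 siRNAs against the transcription factor gene FOXQ1, named si-FOXQ1-1 and si-FOXQ1-2. Every condition had 1 array, all 8 arrays were on 1 slide, and the dyes were never swapped, so a dye effect and the treatment cannot be told apart, nor can the effect of the transfection itself and that of its RNA. The ratios below therefore have no replicate error. The error printed beside a ratio is the scanner software's own error of the spot, and a ratio of 2-fold or more in either direction is used as a descriptive limit, not as a test. Since these are bulk RNA samples, fewer cells of a type and less RNA per cell cannot be told apart.

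LINC symbols are given to genes of long RNAs that lie between protein-coding genes and had no better name when they were catalogued. The group is united by that naming rule and not by a shared function. Some members act as RNA, such as NORAD, which binds PUMILIO proteins. Others are read from the same region as a neighbouring gene, host a microRNA, or have since been found to encode a very small protein. Many are transcribed in few cell types and at low levels, so that cancer lines can differ widely in which of them they use.

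All 287 members were found in RefSeq (GRCh38.p14), 231 under the array's symbol, 54 as an older name of 1 gene and 2 as an older name of several. By that table, 232 still carried a LINC symbol, 15 were named for a neighbouring gene, 16 had a name of their own, 5 were host genes of small RNAs, 13 were protein-coding and 4 were pseudogenes, and the last 2, LINC00086 and LINC00087, had several current symbols. The names LINC01291 and LINC01293 now belong to 1 gene. Below, the array's symbol is used, with the current name beside it.

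MicroRNAs direct the silencing complex to RNAs that pair with their seed, bases 2 to 8 counted from the 5′ end. The mature sequences of 3 of the transfected microRNAs, from RefSeq (GRCh38.p14), are shown because miR-99a-3p and miR-100-3p are the 3p strands of related precursors and because miR-99a-3p is the only agent used in 2 lines. Capitals mark the seed.
miR-99a-5p (chr21:16539101-16539122, plus strand): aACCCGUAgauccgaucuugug
miR-99a-3p (chr21:16539138-16539159, plus strand): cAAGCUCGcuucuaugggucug
miR-100-3p (chr11:122152240-122152261, minus strand): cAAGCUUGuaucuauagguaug
The seeds of miR-100-3p and miR-99a-3p differed at 1 base (U7C, from miR-100-3p to miR-99a-3p, counted from the 5′ end of the microRNA).

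The array probes are 60 bases long. Those of several members on which the ratios turn are printed next with their hg19 positions, as the array design gives them. In LINC00662 the capitals mark a 19-base unit that occurs at positions 7 to 25 and again at 42 to 60 of the probe with 1 change (G11A, from the first copy to the second, counted from the start of the unit), and in LINC00925 they mark AATAAA, the usual polyadenylation signal.
LINC00662, chr19:28268218-28268277, minus strand: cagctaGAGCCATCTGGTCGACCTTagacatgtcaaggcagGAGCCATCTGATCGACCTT
LINC00704 (MANCR), chr10:4693325-4693384, minus strand: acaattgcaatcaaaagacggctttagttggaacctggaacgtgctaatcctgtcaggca
LINC00925 (MIR9-3HG), chr15:89941658-89941717, plus strand: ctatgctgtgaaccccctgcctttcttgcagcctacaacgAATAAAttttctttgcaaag
LINC00618, chr14:97411668-97411727, plus strand: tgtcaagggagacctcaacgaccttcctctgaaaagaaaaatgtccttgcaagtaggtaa
LINC00087, chrX:134229057-134229116, minus strand: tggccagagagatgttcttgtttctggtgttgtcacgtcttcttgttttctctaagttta
LINC00261, chr20:22541381-22541440, minus strand: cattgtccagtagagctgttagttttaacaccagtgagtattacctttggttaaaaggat
LINC00632, chrX:139854449-139854508, plus strand: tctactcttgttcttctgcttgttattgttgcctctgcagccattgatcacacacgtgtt
LINC01291, chr2:75159799-75159858, plus strand: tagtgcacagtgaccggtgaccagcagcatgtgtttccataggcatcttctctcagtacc
LINC01293, chr2:75169703-75169762, plus strand: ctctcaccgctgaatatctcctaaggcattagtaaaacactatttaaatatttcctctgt
A repeat of 15 or more bases with at most 1 change was found in this 1 member probe (0.348%) and in 0.409% of all probes. The letters AATAAA, on the strand as printed, were in 43 member probes (14.98%), compared with 8.51% of the probes of all genes kept by the same rule. Median GC content was 45.0% in member probes and 43.3% in those of all genes kept. The 7-base match to the miR-99a-3p seed (CGAGCTT), to the miR-100-3p seed (CAAGCTT) or to the miR-99a-5p seed (TACGGGT) was in 0 of the 287 member probes on the strand as given, where 0.0808%, 0.450% and 0.0393% of all probes held it. A probe covers a small piece of its RNA, so this says only that these letters are not in these windows.

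The members were dim. Their median mock signal lay between 125 and 212 on the 8 arrays, compared with 435 to 691 for all genes measured in both channels. The mock channel detected 44.5% to 49.2% of gene spots on an array and the transfected channel 37.2% to 41.8%. Accordingly, 38 to 63 members on an array were above background in mock cells only, and 0 to 7 in transfected cells only. The lowest signal called above background was 13.8 to 30.0 in Cy3 and 27.9 to 46.2 in Cy5. The rule of both channels therefore leaves out more members seen in mock cells only than in transfected cells only, and bounds for these are given further on. Detection in mock cells only does not by itself mean a lower level, since the Cy5 limit was the higher one. On the miR-99a-3p array of FaDu, for example, LINC00472 was detected in mock cells only at signals of 46.5 in Cy3 and 46.7 in Cy5. The siRNA target checked the labels of the PANC-1 arrays: the FOXQ1 log2 ratio was −2.16 with si-FOXQ1-1 and −2.12 with si-FOXQ1-2. Of the line markers, KRT5, KRT14, TP63 and DSG3 of squamous epithelium were above background in FaDu alone, the prostate marker KLK3 was not above background in any line, and the pancreatic acinar marker CPA1 was not either, while the duct marker KRT19 was detected throughout.

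Most ratios measured in both channels were small. In all, 1474 pairs of a member and an array were measured in both channels, of which 39 were higher and 23 lower by 2-fold or more. Of 287 members, 235 passed 2-fold on no array, where a pair not measured in both channels counts as not past it. No such count was made for all genes. Per array, 0% to 6.40% of the members measured were higher and 0% to 4.07% lower. Of all genes measured, 0.344% to 7.68% were higher and 0.165% to 5.48% lower, so small shares were not particular to the members. The median log2 ratio of the members was 0.04 (163 members) with miR-99a-5p and −0.00 (172) with miR-99a-3p in FaDu. In PC3 it was 0.08 (205) with miR-150-5p, 0.15 (200) with miR-150-3p, 0.15 (197) with miR-99a-3p and 0.01 (181) with miR-100-3p. In PANC-1 it was −0.00 (176) with si-FOXQ1-1 and 0.02 (180) with si-FOXQ1-2. The medians of all genes lay between 0.00 and 0.07, so that the members stood above all genes by the most on the miR-150-3p array, where the median of all genes was 0.03. The member spots had a median scanner error of 0.22 to 0.24 on the log2 scale.

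**Figure D1:**
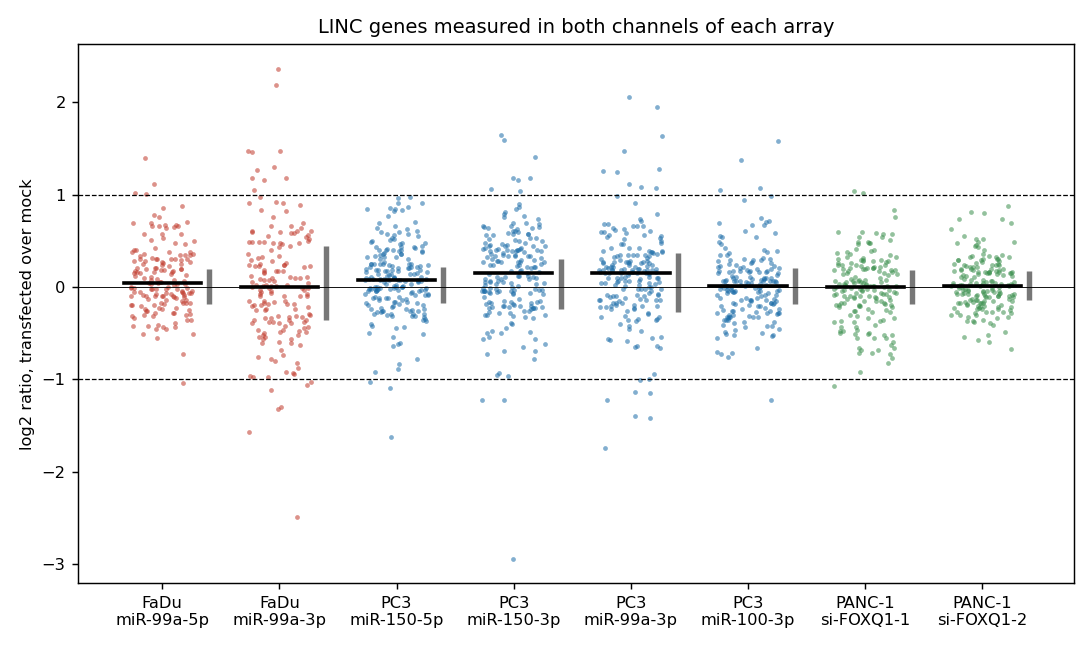
Log2 ratio (transfected over mock) of every member measured in both channels, by array. Each point is a gene, the black line is the members' median, the grey bar spans the quartiles of all genes, and the dashed lines mark 2-fold. Most points lie inside the dashed lines, and the miR-99a-3p arrays hold 18 members outside them in FaDu and 17 in PC3.

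The miR-99a-3p array of FaDu held the most members past 2-fold. There 11 members were higher (7.68% of all genes measured were) and 7 lower (5.48% of all genes), out of 172 members, which is 6.40% and 4.07%, so neither share exceeded that of all genes. LINC00662 was the lowest, with a signal of 5271 in mock and 939 in transfected cells and a log2 ratio of −2.49 (scanner error 0.31). On the other FaDu array its ratio was −0.36, and on the PC3 and PANC-1 arrays it lay between −0.48 and 0.27, so the drop was seen on 1 array. The next were LINC01270 at −1.57, LINC01186 at −1.32, LINC00087 at −1.30, LINC00942 at −1.11, LINC01436 at −1.06 and LINC01547 at −1.03.

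On the higher side of the same array stood LINC00704 (MANCR, an RNA linked to mitosis), which went from 184 to 950 at a log2 ratio of 2.37 (scanner error 0.30). LINC00925 (MIR9-3HG), host gene of a miR-9 precursor, went from 88.3 to 401 at 2.18 (error 0.30). LINC01372 followed at 1.48, LINC00669 (MIR924HG), another microRNA host, at 1.47, and LINC00337 (ICMT-DT), named for its neighbour ICMT, at 1.47. The other 6 were LINC00618 at 1.30, LINC01167 at 1.27, LINC01391 at 1.19, LINC00641 at 1.18, LINC01588 at 1.16 and LINC00673 at 1.05. LINC00704 was far from uniform over the arrays: its ratios were 0.08 with miR-99a-5p in FaDu, −0.14, −0.73, −0.54 and −0.30 on the PC3 arrays in the order miR-150-5p, miR-150-3p, miR-99a-3p, then miR-100-3p, and −0.72 and 0.88 with the first and the second siRNA in PANC-1. The 2 siRNAs against the same gene thus gave opposite signs for it on the probe used, neither past 2-fold. Another of its probes was at 1.03 with si-FOXQ1-2. With si-FOXQ1-1 that probe had signals of 24.3 in mock and 28.9 in transfected cells, the latter not above background. The opposite signs therefore rest on 1 probe.

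With miR-99a-5p, the other strand of the same precursor, FaDu cells had 4 members higher (0.906% of all genes) and 1 lower (0.165% of all genes) of 163. LINC00460, an RNA described in several carcinomas, was highest at 1.39, followed by LINC01349 at 1.11, LINC00299 at 1.02 and LINC00634 (SMIM45) at 1.01. The mock signals of LINC00460, LINC01349 and LINC00299 were 19.3, 24.2 and 27.2 (scanner errors 0.45, 0.43 and 0.42). On this array the lowest detected Cy3 signal was 17.1 and the highest not detected was 25.7, so these ratios rest on signals near the limit. LINC01569 was lowest at −1.04, from a signal of 93.0 in mock and 45.3 in transfected cells.

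On the miR-99a-3p array of PC3, 10 members were higher (4.19% of all genes) and 7 lower (3.99% of all genes) of 197, which is 5.08% and 3.55%. LINC00663 was the highest at 2.06. Its ratio was also above 0 with miR-150-5p (0.98) and miR-150-3p (1.16), the other arrays where both channels measured it. Its mock signals on these arrays were low, at 24.9 and 35.3 (scanner errors 0.40 and 0.36). With miR-100-3p it was seen in mock cells only, at least 1.54-fold lower, or 1.04-fold against the highest signal not called above background. With si-FOXQ1-2 in PANC-1 it was seen in transfected cells only, at least 2.52-fold higher, or 1.80-fold against that limit. LINC00632 rose from a signal of 3551 to 11030, a log2 ratio of 1.64 (scanner error 0.25), against 0.08, −0.22 and −0.76 on the miR-150-5p, the miR-150-3p and the miR-100-3p array. Its locus is known as the precursor of the circular RNA CDR1as. LINC00657 (NORAD) stood at 1.07 here and between −0.68 and 0.53 on the other arrays. The remaining higher members were LINC01361 at 1.95, LINC00087 at 1.47, LINC00086 at 1.28, LINC00112 at 1.26, LINC00950 (TMEM8B) at 1.25, LINC01563 at 1.12 and LINC00944 at 1.08.

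LINC00261, a neighbour of the endoderm transcription factor gene FOXA2, was lower there, at 7138 in mock and 2665 in transfected PC3 cells, a log2 ratio of −1.42 (scanner error 0.24). Its ratios on the other arrays where it was measured were −0.25, 0.18 and −0.28 in PC3 and 0.83 and −0.20 in PANC-1. FOXA2 itself had a ratio of −1.13 on the same array. LINC00618 was the lowest at −1.74, with LINC01293 at −1.39, LINC01251 (UBE2R2-AS1) at −1.22, LINC01515 at −1.15, LINC01482 at −1.14 and LINC00342 at −1.01.

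The miR-150-3p array of PC3 held 8 higher members (2.63% of all genes) and 3 lower (2.28% of all genes) of 200. LINC00618 fell from 682 to 88.7, the lowest ratio of any member on any array, −2.94. It was also lower with miR-99a-3p in PC3, as given above, and it was −0.27 with miR-150-5p and −0.50 with miR-100-3p. LINC01133 at −1.23 and LINC00161 at −1.22 were the other lower members. LINC01431 at 1.65, LINC00173 at 1.60 and LINC01213 at 1.41 led the higher ones, and LINC00087 at 1.19, LINC01184 (SLC12A2-DT) at 1.18, LINC00663 at 1.16, LINC00894 (EOLA2-DT) at 1.06 and LINC00950 (TMEM8B) at 1.04 followed. The PC3 arrays may share their mock RNA, which the labels do not settle, so that values shared between them are given side by side only.

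With miR-150-5p, 0 members were higher (0.63% of all genes) and 3 lower (0.783% of all genes) of 205. These were LINC01293 at −1.63, LINC01291 at −1.09 and LINC00337 (ICMT-DT) at −1.03. LINC01291 and LINC01293 are 2 array names of what is now 1 gene, with 9845 bases between their probes on chromosome 2. Their ratios were 0.90 and 0.61 with miR-150-3p, −0.99 and −1.39 with miR-99a-3p, and 0.22 and 0.72 with miR-100-3p. Both probes thus had the same sign on all 4 PC3 arrays.

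With miR-100-3p, 4 members were higher (0.954% of all genes) and 1 lower (0.334% of all genes) of 181. LINC00161 was highest at 1.58, followed by LINC00520 at 1.38, LINC00635 at 1.08 and LINC01269 at 1.05, and LINC01515 was lowest at −1.23. In PANC-1, si-FOXQ1-1 gave 2 higher members (0.883% of all genes), LINC00659 at 1.04 and LINC00989 at 1.02, and 1 lower (0.365% of all genes), LINC00842 at −1.07, of 176. With si-FOXQ1-2, 0 were higher (0.344% of all genes) and 0 lower (0.374% of all genes) of 180. There LINC00704 was highest at 0.88, LINC00842 was at 0.80, and LINC00877 was lowest at −0.68, so that LINC00842 had opposite signs with the 2 siRNAs.

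**Figure D2:**
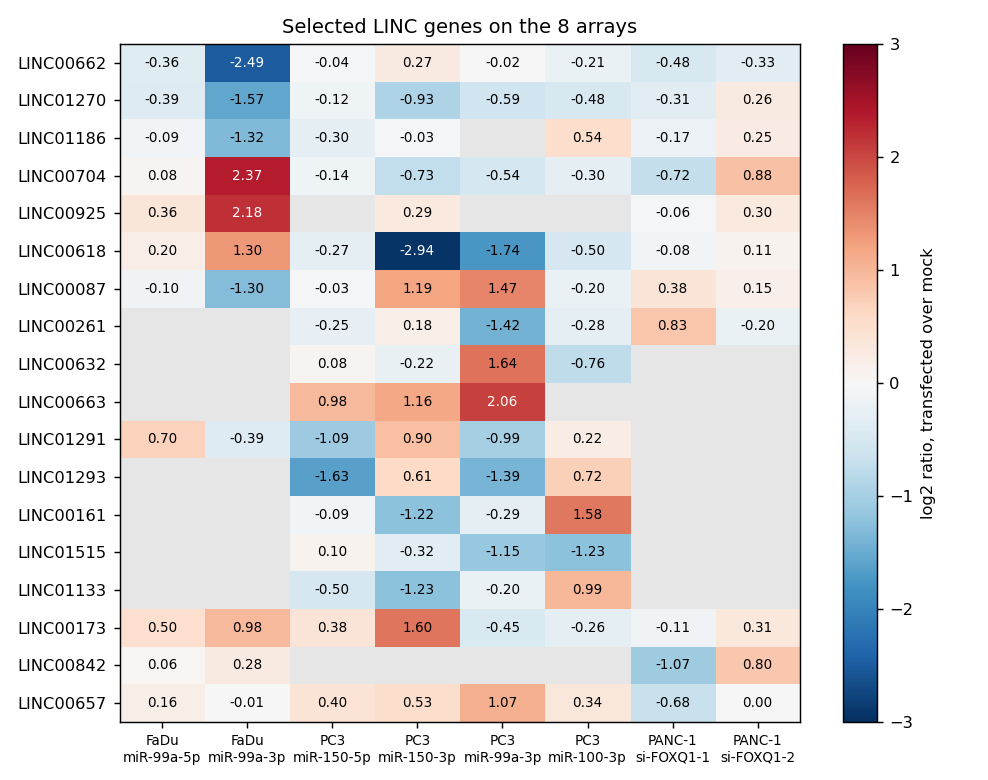
Log2 ratio (transfected over mock) of 18 members on the 8 arrays, on a blue to red colour scale. Grey cells are not above background in both channels, and the strong colours stand in single columns for most genes, such as LINC00662 (−2.49) and LINC00704 (2.37) under miR-99a-3p in FaDu.

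Over all arrays, 36 members were higher on at least 1 array and 20 were lower on at least 1, which makes 52 members past 2-fold, since 4 were higher on 1 array and lower on another. These 4 were LINC00087, LINC00161, LINC00337 and LINC00618. Of the members, 8 passed 2-fold on 2 or more arrays. No such count over several arrays was made for all genes, so these numbers describe the members alone. These counts hold for the scanner's ratios. With the normexp background correction, its offset of 50 in both channels and loess, all changed together, the 39 higher and 23 lower pairs became 12 and 6. Under that correction LINC00662 was at −2.34, LINC00704 at 1.75, LINC00925 at 1.22, LINC00632 at 1.57, LINC00261 at −1.39 and LINC00663 at 1.16, and LINC00618 at −2.23 with miR-150-3p and −1.43 with miR-99a-3p in PC3, all still past 2-fold.

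Where 1 channel only was above background, the ratio is a bound, taken against the higher of the lowest detected signal in the dim channel and the spot's own signal. Of 380 pairs of a member and an array seen in mock cells only, 11 had a bound of at least 2-fold lower, and of 12 seen in transfected cells only, 10 had a bound of at least 2-fold higher. Taken against the highest signal that was not called above background, these counts were 5 and 3. On the miR-99a-3p array of FaDu, LINC01213 was at least 9.42-fold higher and LINC00640 at least 3.51-fold higher. LINC01133 was at least 3.77-fold lower on that array and at least 2.92-fold lower with miR-99a-5p. In PC3 with miR-99a-3p, LINC01152 was at least 3.097-fold lower and LINC00659 at least 2.92-fold lower. These bounds have no replicate and are open to dye bias.

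Several members had more than 1 probe, which gives a check within an array, though not a replicate of the condition. For LINC00662 on the miR-99a-3p array of FaDu, 4 probes measured −2.64, −2.49, −2.23 and −1.82, and the fifth had a mock signal of 507 and no transfected signal above background. LINC00704 had 3 probes at 1.76, 2.37 and 2.92. LINC00925 had 2 overlapping measured probes at 2.18 and 2.72, and its other 2 were above background on no array. In each of these genes the measured probes moved the same way.

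In PC3 with miR-99a-3p, LINC00261 had 2 probes at −1.42 and −1.24 and LINC00632 had 2 at 1.64 and 1.91. Not all genes were so uniform. The first 2 probes of LINC00087 were at −1.30 and −0.996 in FaDu and at 1.47 and 1.34 in PC3, while the third was at 0.03 and 0.01. The probes of LINC00173 ranged from 0.07 to 1.68 with miR-150-3p in PC3, those of LINC00673 from 0.16 to 1.62 with miR-99a-3p in FaDu, and those of LINC00086 from 0.28 to 1.28 with miR-99a-3p in PC3. The ratios of these 4 genes therefore depended on the probe, and that of LINC00618 rested on 1 probe. In all, 88 members had 2 or more probes by the same rule, and the median range between the probes of a gene was 0.30 to 0.55 log2 units on an array. On the miR-99a-3p array of FaDu, 13 of 47 such genes had any probe past 2-fold and 4 had all of them. The same counts were 11 and 1 with miR-150-3p and 7 and 2 with miR-99a-3p in PC3.

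**Figure D3:**
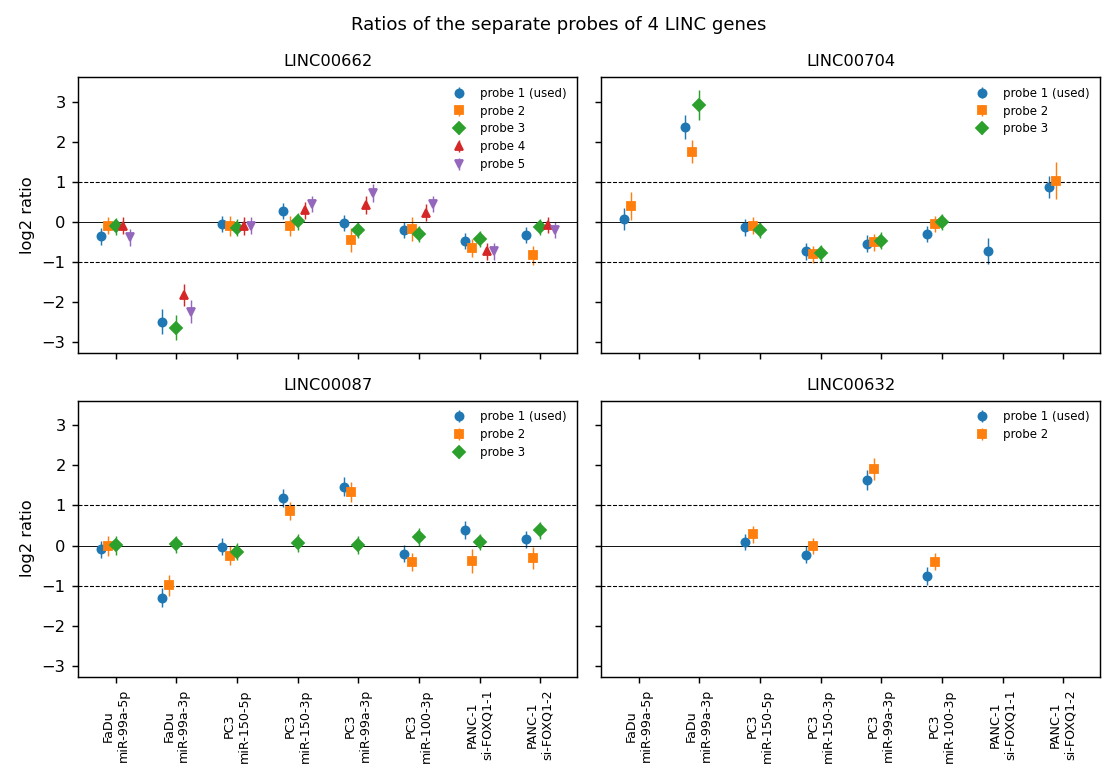
Log2 ratio of each separate probe of LINC00662, LINC00704, LINC00087 and LINC00632 by array, with the scanner software's spot error as bars. The 4 measured probes of LINC00662 lie below −1.5 under miR-99a-3p in FaDu, and the third probe of LINC00087 stays near 0 where the other 2 do not.

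miR-99a-3p was given to both FaDu and PC3, whose mock cells are separate. Of 139 members measured on both arrays, 0 were higher in both, 0 were lower in both, and 124 (89.2%) passed 2-fold in neither. Of 14882 genes measured on both, 91 (0.612%) were higher in both, 51 (0.343%) lower in both and 82.4% past 2-fold in neither. The remaining members past 2-fold were so in 1 line, except LINC00087 and LINC00618, which went in opposite directions (1.44% of members, against 1.06% of all genes). LINC00087 was at 1.47 in PC3 and −1.30 in FaDu, and LINC00618 at −1.74 in PC3 and 1.30 in FaDu. With 1 array per line these differences were not tested.

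Of the 15 members named for a neighbouring gene, 14 had that neighbour on the array. LINC00337 and ICMT had ratios of 1.47 and 1.30 with miR-99a-3p in FaDu, and of −1.03 and −0.54 with miR-150-5p in PC3. LINC01184 and SLC12A2, a chloride cotransporter gene, were at 1.18 and 1.41 with miR-150-3p, but at −0.83 and 1.43 with miR-150-5p. LINC01251 and UBE2R2 were at −1.22 and 1.05 with miR-99a-3p in PC3. A member and its neighbour thus moved alike on some arrays and apart on others.

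A list of 30 LINC genes with published names or roles was also followed. It held 23 members, and the other 7, LINC00473, LINC00511, LINC00707, LINC00518, LINC00675, LINC00961 and LINC00948, were on the array but not above background in both channels of any array. The median log2 ratio of those measured lay between −0.10 and 0.28 on the 8 arrays, and 0 to 2 of them passed 2-fold on an array. Those past 2-fold were LINC00460 with miR-99a-5p and LINC00662 and LINC00673 with miR-99a-3p in FaDu, LINC01133 with miR-150-3p, LINC00657 and LINC00261 with miR-99a-3p and LINC00520 with miR-100-3p in PC3, and LINC00842 with si-FOXQ1-1 in PANC-1. The paper lists LINC00346, another of these members, among putative miR-99a-3p targets in PC3, with a negative log2 ratio from the same deposited data. On that array its signals were 85.6 in mock and 18.2 in transfected cells, the latter not above background. The counts here needed both channels above background, so LINC00346 was left out of them. Its bound was at least 1.87-fold lower, or 1.17-fold against the highest signal not called above background.

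The mock channels show which members each line used before any transfection. In all mock channels of all 3 lines, 176 members (61.3%) were above background, compared with 74.1% of all genes kept by the same rule. In PC3 alone, 18 members (6.27%) were detected, compared with 3.30% of all genes. FaDu alone had 5 (1.74%, against 1.75% of all genes) and PANC-1 alone 7 (2.44%, against 1.47%). Both PC3 and PANC-1, without FaDu, had 18 (6.27%, against 3.55%). Another 54 members (18.8%, against 12.3%) were above background in some channels of a line and not in others. The arrays entered the choice of members, and 4 of the 8 were PC3 arrays, so these shares describe the chosen genes.

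**Figure D4:**
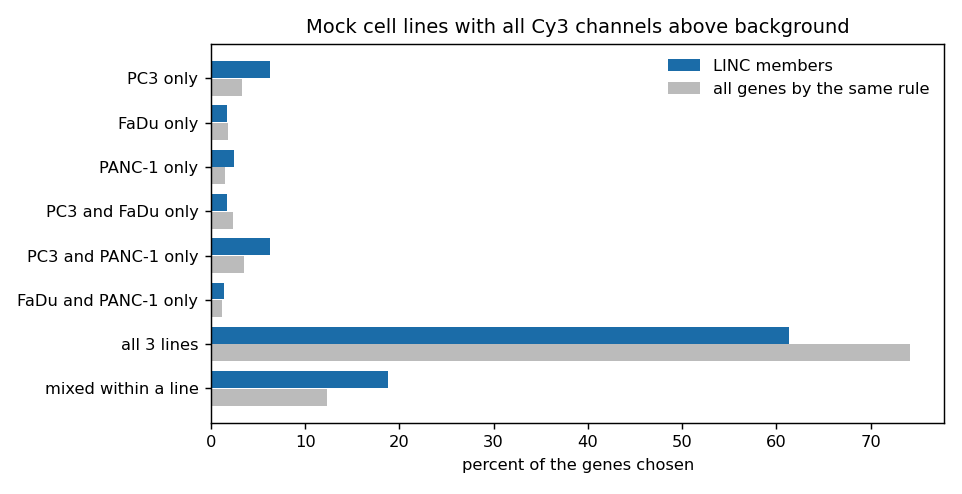
Percent of the 287 members and of all 21327 genes kept by the same rule, by the lines in which every mock channel was above background. The bars for all 3 lines are 61.3% and 74.1%, and the bars for PC3 alone are 6.27% and 3.30%.

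Mock signals were compared between lines on the log2 scale after subtracting the 75th percentile of each array, over 4 PC3, 2 FaDu and 2 PANC-1 channels, with limma and Benjamini-Hochberg adjustment over 22748 genes. The labels do not say that the mock channels of a line came from separate cultures, so the p-values measure only the spread between these channels, which may be technical. Of 270 members tested, 85 were higher (35.7% of all genes) and 90 lower (39.5% of all genes) in PC3 than in FaDu, which is 31.5% and 33.3%. Against PANC-1, 82 were higher (32.1% of all genes) and 79 lower (35.8% of all genes) in PC3, which is 30.4% and 29.3%. Between FaDu and PANC-1, 89 were higher (34.9% of all genes) and 75 lower (34.6% of all genes) in FaDu, which is 32.96% and 27.8%. The members' shares were thus below those of all genes in each of the 6 counts. With a difference of at least 2-fold required as well, the members' shares were 21.5% and 17.8% for PC3 above and below FaDu (21.0% and 19.96% of all genes), 19.6% and 16.3% for PC3 above and below PANC-1 (16.9% and 16.2% of all genes), and 16.3% and 19.6% for FaDu above and below PANC-1 (18.2% and 19.4% of all genes). The order of members and all genes thus depended on the threshold.

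The probes of the members that differed most between lines are printed next, beside those of LINC00704, LINC00261 and LINC00632 above.
LINC01420 (NBDY), chrX:56843930-56843989, plus strand: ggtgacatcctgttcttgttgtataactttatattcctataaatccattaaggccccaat
LINC01468 (LNCAROD), chr10:54211074-54211133, minus strand: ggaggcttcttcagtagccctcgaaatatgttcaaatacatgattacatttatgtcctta
LINC00842, chr10:47151119-47151178, minus strand: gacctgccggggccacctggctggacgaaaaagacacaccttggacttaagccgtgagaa
LINC01503, chr9:132104123-132104182, plus strand: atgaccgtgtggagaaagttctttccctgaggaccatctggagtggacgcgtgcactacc
LINC00958, chr11:13001641-13001700, minus strand: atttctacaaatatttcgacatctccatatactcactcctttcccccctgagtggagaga

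Among the members of the highest mock signal, LINC01356 had a scaled log2 level of 8.11 ± 0.09 (SD, n = 4) in PC3, 8.38 ± 0.21 (SD, n = 2) in FaDu and 7.995 ± 0.002 (SD, n = 2) in PANC-1. LINC00493 (SMIM26) and LINC00116 (MTLN) encode small mitochondrial proteins. LINC00493 was at 6.51, 6.11 and 6.72 and LINC00116 at 4.58, 4.43 and 5.98 in the same order. LINC00504 was at 6.498, 6.77 and 5.81. All of these were used by each of the 3 lines.

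A member detected in some lines only passed the filter through those lines, so its bound against another line is a description and has no p here. LINC01420 (NBDY), which encodes a microprotein of the mRNA decapping bodies, was at 5.44, 5.39, 5.64 and 5.69 in the PC3 channels and at 5.26 and 5.18 in PANC-1. In FaDu it was not well above background in either channel (−4.95 and −4.90). PC3 was at least 363-fold higher than FaDu (measured means 5.54 and −4.92), and PANC-1 at least 290-fold higher than FaDu (means 5.22 and −4.92). Each such bound is taken against the higher of the lowest detected mock signal and the spot's own signal. Against a higher limit, the highest mock signal not called above background, the bounds were 243-fold and 194-fold.

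LINC00261 was at 4.22, 4.19, 4.70 and 4.80 in PC3, at 0.49 and 0.38 in PANC-1 and not well above background in FaDu. It was at least 174-fold higher in PC3 than in FaDu (means 4.48 and −4.81), or 116-fold against the higher limit. Between PC3 and PANC-1 it differed by 4.04 ± 0.17 (SE, limma adjusted p = 3.57e-08). FOXA2, its neighbour, had means of 4.39 in PC3, −0.05 in FaDu and 4.12 in PANC-1. The lines with the higher FOXA2 level were thus those with detected LINC00261, but LINC00261 was much lower in PANC-1 than in PC3.

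LINC00704 (MANCR) was at 5.61, 5.54, 5.46 and 5.53 in PC3, at −0.73 and −0.32 in FaDu and at −0.95 and −1.25 in PANC-1, so the PC3 channels did not overlap the others. PC3 was higher by 6.06 ± 0.12 (SE) than FaDu (limma adjusted p = 2.17e-10) and by 6.64 ± 0.12 (SE) than PANC-1 (limma adjusted p = 1.81e-10). LINC01351 (BRINP3-DT) was at 3.73, 3.59, 3.84 and 3.93 in PC3 and LINC00632 at 3.70, 3.65, 3.69 and 3.86, and neither was well above background in the other lines. LINC00632 was at least 103-fold higher than in FaDu (means 3.72 and −3.88) and at least 126-fold higher than in PANC-1 (means 3.72 and −3.81). Against the higher limit these bounds were 68.8-fold and 88.6-fold.

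LINC01468 (LNCAROD, which lies near DKK1) was at 4.28, 4.32, 4.18 and 4.21 in PC3, at 3.60 and 3.49 in FaDu and at −2.47 and −1.96 in PANC-1. PANC-1 was the line apart, below PC3 by 6.46 ± 0.12 (SE; limma adjusted p = 2.29e-10) and below FaDu by 5.75 ± 0.14 (SE; limma adjusted p = 1.21e-09). LINC01116 was highest in PC3 at 3.44, 3.25, 3.40 and 3.36, against −0.01 and 0.16 in FaDu and 1.96 and 1.78 in PANC-1.

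FaDu was the highest line for another set. LINC00958 was at 2.90 and 2.72 in FaDu, at −2.08, −2.22, −2.57 and −2.64 in PC3 and at −2.22 and −2.15 in PANC-1. PC3 differed from FaDu by −5.19 ± 0.17 (SE; limma adjusted p = 5.63e-09). LINC01503, an RNA described in squamous carcinoma, was at 2.58 and 2.55 in FaDu, at −2.62, −3.12, −2.78 and −2.63 in PC3 and at −0.12 and −0.38 in PANC-1, with a difference of −5.36 ± 0.16 (SE; limma adjusted p = 2.83e-09) between PC3 and FaDu. For both genes the FaDu channels lay above all channels of the other lines.

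LINC00842 was at 3.23 and 3.22 in FaDu and at −0.06 and 0.01 in PANC-1, and it was not well above background in PC3. FaDu was at least 110-fold higher than PC3 (means 3.23 and −4.09), or 72.9-fold against the higher limit. It was higher than PANC-1 by 3.26 ± 0.22 (SE, limma adjusted p = 8.46e-07). LINC00491 was detected in FaDu only, at 0.20 and 0.10. PANC-1 had the highest level of LINC00982 (PRDM16-DT), at 0.89 and 1.01, where 1 of 4 PC3 channels and 1 of 2 FaDu channels were above background.

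**Figure D5:**
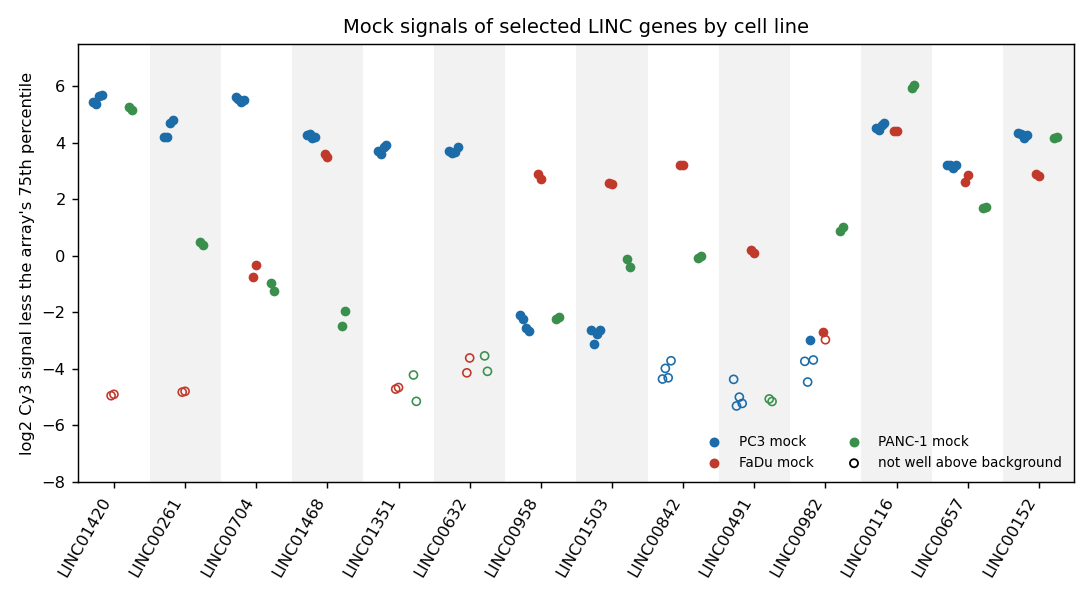
Mock level (log2 Cy3 signal less the 75th percentile of the array) of 14 members in each mock channel of PC3, FaDu and PANC-1. Open symbols are not well above background. LINC00704 lies between 5.46 and 5.61 in PC3 and below 0 in the other lines, and LINC01503 lies above 2.5 in FaDu only.

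The members with the largest ratios were not limited to lines where they were bright. LINC00704 was past 2-fold in FaDu, where its mock level was low, and not in PC3, where it was high. LINC00662, with mock means of 2.62 in PC3, 4.51 in FaDu and 4.14 in PANC-1, was past 2-fold in FaDu alone. For LINC00657 (NORAD) the means were 3.19, 2.75 and 1.71, and for LINC00152 (CYTOR), described in many carcinomas, 4.28, 2.86 and 4.19.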

How the data were processed

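Total RNA of mock and transfected cells was hybridised to 8 two-colour Agilent arrays, Cy3 for mock and Cy5 for transfected cells per the labels. The authors' files are scanner output of Feature Extraction 10.7.3.1 per the file headers. The deposited intensity of each channel (processed signal, background-subtracted and dye-normalised), the deposited log10 ratio of Cy5 over Cy3 with its error, and the software's flags for background and outliers were used. The authors' series value table held the same log10 ratio (largest difference 0). The array annotation is on hg19.

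Ratios were put on the log2 scale. Control spots and outlier flags (81 to 178 spots an array) were left out, spots of a probe were averaged, and the brightest probe stood for a gene. A ratio was used where both channels were well above background. Line differences were fitted with limma 3.58.1 (lmFit, eBayes with trend) in R 4.3.3 on log2 mock intensity less the 75th percentile of the array, for genes above background on at least 2 arrays, with Benjamini-Hochberg adjustment and a threshold of 0.05. Other steps used Python 3.11.15. The procedures were tested on simulated data. The number of arrays limits the precision.

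Members and lists were chosen with earlier results of these data known. The named members were the 3 highest and 3 lowest ratios of each array, the 5 brightest mock members of each line, the 3 largest called differences each way between lines and the 3 brightest members of a single line, and those with published names or roles. Members past 2-fold, those with several probes or bounds, and neighbours were named besides after their values were seen. Alternatives changed the background correction, the filter, the probe rule, the centring, the threshold, the normalization and the channels, and left out each mock channel in turn. Sequences are from the array files and RefSeq.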

Additional observations from a re-analysis of the deposited data

Results flagged for a closer look

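Of 48 named members with 4 mock PC3 channels above background, 2 had a channel far from the other 3, as a gap over the whole range above Dixon's 95% limit for 4 values. LINC00877 had scaled log2 levels of −0.47, −0.51, −0.54 and 0.32, a gap of 0.922 of the range. LINC01361 had −2.84, −2.84, −2.84 and −2.08, a gap of 0.997. Chance passes this limit in about 1 of 20 groups.

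Under miR-99a-3p, 2 of 139 members measured in both lines (1.44%) passed 2-fold in opposite directions, compared with 158 of 14882 genes (1.06%). LINC00087 had a log2 ratio of 1.47 in PC3 and −1.30 in FaDu, and LINC00618 had −1.74 in PC3 and 1.30 in FaDu. Each value comes from 1 array, and the difference between the lines was not tested.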

How the results depend on the processing

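All 48 recomputed medians of the members moved by less than the median scanner error of a member spot. The 287 members became 192 when 4 arrays were required, 109 when all 8 were and 288 with outlier spots kept. Arrays are listed as FaDu with miR-99a-5p, then miR-99a-3p, PC3 with miR-150-5p, miR-150-3p, miR-99a-3p, then miR-100-3p, and PANC-1 with si-FOXQ1-1, then si-FOXQ1-2. With normexp and loess the 39 higher pairs became 12 (per array 0, 4, 0, 2, 5, 1, 0 and 0) and the 23 lower pairs 6 (0, 3, 0, 1, 2, 0, 0 and 0). At 1.5-fold they were 148 (18, 29, 19, 30, 26, 13, 6 and 7) and 83 (2, 24, 10, 12, 14, 6, 13 and 2), and at 4-fold 3 (0, 2, 0, 0, 1, 0, 0 and 0) and 2 (0, 1, 0, 1, 0, 0, 0 and 0). With 1 channel above background enough, the lower pairs became 104 (7, 16, 9, 17, 23, 17, 9 and 6), and the higher ones rose to 18 on the miR-99a-3p array of FaDu and to 2 with si-FOXQ1-2. The mean over probes gave 1 higher member with si-FOXQ1-2, LINC00842 at 1.11. Of 240 recomputed ratios of named members 39 moved by more than their scanner error, 37 of them under normexp. Many of the 240 could not move. The series value table held the same ratios, and the 1-channel rule alters no ratio measured in both channels. A change of sign was looked for only where the ratio was at least 2-fold, and none was found.

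Between lines, in the order PC3 above and below FaDu, PC3 above and below PANC-1, FaDu above and below PANC-1, the calls became 52, 47, 49, 44, 35 and 37 with the Cy5 channels, of which 50, 40, 48, 44, 32 and 37 were shared with the mock calls. Those channels hold transfected cells. With detection on all 8 arrays, which tests fewer genes, the calls were 42 for PC3 above FaDu, 42 for PC3 above PANC-1 and 37 for FaDu below PANC-1. A 2-fold difference as well left 48 for PC3 below FaDu, 53 and 44 for PC3 above and below PANC-1 and 44 for FaDu above PANC-1. Leaving out each mock channel gave 79 to 86, 77 to 88, 68 to 82, 64 to 82, 75 to 91 and 64 to 76. All 260 recomputed differences of named members kept their direction. These members were named for the largest called differences in the same channels, so this outcome was close to fixed by the choice and is no separate support. Some settings left no spread within FaDu or within PANC-1, so no p is given for them. Among these was the averaging of mock channels in pairs, a choice made after seeing the data, where all 18 differences kept their direction. Averaging was tried because PC3 channels differed by an SD of 0.157 and 0.169 within neighbouring pairs and 0.256 to 0.259 between pairs. No paired analysis was possible because the labels number no replicates and no condition was repeated.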
